A study of Mus musculus with 12 samples.

Results

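The subject is a set of 48 mouse genes of DNA replication and S phase, listed by their known function. They cover the licensing of replication origins, the replicative helicase, the sliding clamp and its loader, the polymerases and primase, the lagging strand, the supply of deoxynucleotides, the entry into S phase, fork protection and the copying of chromatin. No expression value of these arrays enters the rule that lists them, but the list was chosen with earlier results of these data known. Each gene was read from its brightest microarray probe matched through a RefSeq accession. A probe was kept if, in at least 1 group, the scanner software had marked its Cy5 signal well above background on each of the 3 arrays. Of the 48 genes, 44 had a matched probe, and all 44 passed that filter, among 11095 genes tested. Gins1, Gins2, Rfc3 and Rfc5 had no matched probe and are not analysed here. The cells were dendritic cells (DCs), antigen-presenting cells, here grown from mouse marrow after removal of B and T cells. All 4 groups share the culture of 5 days, in which the cytokines were GM-CSF (10 ng/ml) and IL-4 (5 ng/ml). Strain, sex and age of the mice are not given in the labels. The groups were unstimulated cells (0 h) and cells given LPS, the bacterial lipopolysaccharide that Tlr4 senses, at 100 ng/ml for 1, 6 or 24 h, with 3 arrays each, from donors lettered A, B and C. Cells were collected by pipetting with no sort named, so each value is an average over a bulk culture.

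Replication is prepared in G1, when the origin recognition complex, Cdc6 and Cdt1 load the Mcm helicase onto origins. Cyclin E with its kinase and the E2F transcription factors then open S phase, Cdc45, GINS and Mcm10 activate the helicase, and polymerases copy both strands while Pcna holds them on the template. Most of these genes are transcribed in waves at the G1/S boundary under E2F, so their transcripts are low in resting and terminally differentiated cells and high in dividing ones. In marrow cultures with GM-CSF, dividing precursors give rise to dendritic cells, which leave the cell cycle as they mature. In a bulk culture, fewer cells in S phase and less of a transcript per cell cannot be told apart.

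Each array compared 1 Cy5-labelled sample with the same Cy3-labelled pool of mouse RNA, and a level is given here as the log2 ratio of sample to that pool after loess normalisation. A negative level therefore means less RNA than in the pool, not an absent transcript, and levels of different genes are not compared. A change is the difference between 2 group means on this log2 scale, given with limma's standard error (SE) over 3 arrays per group. It was called at a Benjamini-Hochberg adjusted p under 0.05 over the 11095 genes. The share of probes marked above background in Cy5 ran from 48.1 to 57.6%. The 10 known LPS response genes used as a check on the labels, Tnf, Il6 and Cxcl10 among them, were all higher at 1, 6 and 24 h. Dendritic cell markers had a mean log2 ratio over 16 tested markers of 3.47 to 3.71 in unstimulated arrays and 3.77 to 4.10 at 24 h. Among them the group means of Clec10a (6.99 to 4.36), Dpp4 (0.94 to -0.30) and Ciita (3.70 to 3.37) were lower at 24 h, and those of the others higher. Such a mean is relative to the pool and does not by itself show which cells were present. There were 4 slides. The first carried all unstimulated arrays and 1 h donor A, slide 2 held 1 h and 24 h donor B, slide 3 held 1 h donor C with 6 h donors A and B, and slide 4 held 6 h donor C with 24 h donors A and C. Time and slide are thus partly confounded, and results are given with a fit that takes slide as a block where that fit changes a call. Unstimulated cells were collected at 0 h only, so LPS cannot be told apart from the added time in culture.

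Sequence upstream of these genes is shown first, because it holds an E2F motif in 13 of 40 genes. The list named no motif, but it was made by known function, and most of its genes are known to be transcribed under E2F. Its share of motifs is thus not independent of how it was made. In RefSeq promoters of build GRCm38.p6 (250 bases before to 50 after a gene's annotated start), 40 of the 48 genes had an entry. Both strands were searched for the E2F octamers TTTCCCGC, TTTGGCGC, TTTCGCGC and TTTGCCGC. At least 1 of them was found in 13 of the 40 genes, or 32.5%, against 2.605% of all 27025 genes with an entry and 2.265% of all 32851 promoters. These comparison genes were not matched to the list for base composition. In 9 of the 13 genes a match lay before the start, and in Cdt1, Lig1, Mcm3 and Pold1 it lay only after it. The 60 bases around the match, 5′ to 3′ on the gene's strand, follow for the 8 measured genes with a match before the start. Capitals mark the octamer as it reads on that strand, and in Mcm5 and Mcm6 a pair of octamers on opposite strands overlap and form 1 longer run.
Orc1, chr4:108579394-108579453, plus strand: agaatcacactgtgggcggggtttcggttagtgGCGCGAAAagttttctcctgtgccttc
Cdc6, chr11:98907987-98908046, plus strand: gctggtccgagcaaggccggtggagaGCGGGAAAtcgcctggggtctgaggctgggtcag
Mcm5, chr8:75109330-75109389, plus strand: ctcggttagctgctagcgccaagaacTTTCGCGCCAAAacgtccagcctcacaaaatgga
Mcm6, chr1:128359782-128359841, minus strand: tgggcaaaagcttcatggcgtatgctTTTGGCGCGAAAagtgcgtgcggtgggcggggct
Mcm7, chr5:138172015-138172074, minus strand: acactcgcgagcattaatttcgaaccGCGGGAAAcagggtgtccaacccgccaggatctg
Pola1, chrX:93632260-93632319, minus strand: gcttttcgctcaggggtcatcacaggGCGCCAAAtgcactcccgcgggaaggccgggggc
Uhrf1, chr17:56304102-56304161, plus strand: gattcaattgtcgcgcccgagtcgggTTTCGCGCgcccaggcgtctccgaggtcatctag
Dnmt1, chr9:20952809-20952868, minus strand: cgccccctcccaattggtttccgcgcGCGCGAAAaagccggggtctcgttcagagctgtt

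Timeless and Dck rose at 6 h while most of the list was lower, as described below, and neither held one of these octamers in its 300-base promoter window. The same was true of most of the list. Of 38 measured genes with an entry, 26 held no octamer, and 21 of these 26 were called lower at 6 h. Pola2, called in neither direction, was also among the 26. Any link between octamer and change was not tested. Their 250 bases before the start are shown for comparison, in lower case throughout because no match was found.
Timeless, chr10:128237816-128238065, plus strand: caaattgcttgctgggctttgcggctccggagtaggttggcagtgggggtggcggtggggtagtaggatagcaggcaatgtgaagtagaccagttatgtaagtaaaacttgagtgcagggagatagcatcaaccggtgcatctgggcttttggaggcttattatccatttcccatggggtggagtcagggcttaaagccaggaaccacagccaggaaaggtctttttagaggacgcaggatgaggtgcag
Dck, chr5:88764763-88765012, plus strand: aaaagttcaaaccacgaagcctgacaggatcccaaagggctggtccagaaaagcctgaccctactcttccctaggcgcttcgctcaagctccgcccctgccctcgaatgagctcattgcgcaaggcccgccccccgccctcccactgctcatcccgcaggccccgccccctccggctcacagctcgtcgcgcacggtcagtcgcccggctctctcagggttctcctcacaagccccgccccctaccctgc

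A CCAAT box (CCAAT, both strands) was found in 22 of the 40 genes, or 55%, against 41.058% of all genes. The cell cycle homology region of mitotic promoters (TTTGAA, both strands) was found in 5 of 40, or 12.5%, against 20.226%. Mcm4, Pole, Gmnn, Prim2, Gins1, Ccne2, Tipin and Gins2 had no entry. A match in these windows is a description of the letters and does not show that a factor binds.

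Most transcripts of the list were lower at 6 h and 24 h after LPS. By limma's F test over the 4 groups, 42 of the 44 genes differed, against 51.7% of all genes. At 1 h, 16 of the 44 genes were called lower and 0 higher, against 3.39% of all genes called lower and 4.06% higher. At 6 h, 39 were lower and 2 higher (Timeless and Dck), against 23.5% and 16.1% of all genes. At 24 h, 40 were lower and 0 higher, against 21.5% lower and 18% higher. The median change over the 44 genes was -0.75 at 1 h, -1.11 at 6 h and -1.46 at 24 h, while the medians over all genes were 0.02, -0.04 and 0.02. Called falls of at least 2-fold numbered 3 at 1 h (0.577% of all genes), 25 at 6 h (5.76% of all genes) and 33 at 24 h (6.55%). These 3 comparisons share the unstimulated arrays. Chek1 alone of the 44 passed the filter on dim probes through the unstimulated group only, so a fall was built into its choice; without it 15, 38 and 39 of 43 genes were lower.

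The levels of single arrays show the same course. The median log2 ratio over the 44 genes was -0.60, -0.64 and -0.75 in unstimulated donors A, B and C, and -1.39, -1.74 and -1.06 at 1 h. It was -2.10, -2.22 and -1.61 at 6 h and -1.92, -2.17 and -2.22 at 24 h. All 9 LPS arrays lay below all 3 unstimulated arrays on this median. Donor C was the least low array at 1 h and at 6 h, and donor B was the lowest at 1 h.

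The falls at 1 h were the least secure. With slide as a block, 0 of the 16 calls were kept in limma's fit (0.496% of all genes were lower), although 21 genes were lower at an unadjusted p under 0.05, the median was -0.66, and 35 of the 44 genes had all 3 arrays at 1 h below all 3 unstimulated ones (16.5% of all genes). Without donor C at 1 h the count of calls was 26, without either of the other 1 h arrays it was 3, without unstimulated donor A or B it was 2, and without 6 h donor A it was 10. With donor as a block, 22 were lower (4.68% of all genes); Tyms was lost, and Gmnn, Mcm10, Fen1, Lig1, Tk1, Tipin and Chaf1a were gained.

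At the later times the slide block left 23 genes lower and 1 higher at 6 h (9.02% and 8.55% of all genes), and 30 lower at 24 h (8.23%). All 6 h and 24 h arrays lie on other slides than the 0 h arrays. Slide-adjusted changes from 0 h, at every LPS time, therefore rest on 1 h donor A, the only LPS array on slide 1. Differences taken inside a slide, which compare arrays of 1 slide, were mostly falls too. None of them sets 6 h or 24 h directly against 0 h. On slide 1, 43 of the 44 genes were lower in 1 h donor A than in the mean of the unstimulated arrays, with a median of -0.66. On slide 3, 39 were lower in the 6 h arrays than in 1 h donor C, with a median of -1.01, and on slide 2, 34 were lower in the 24 h than in the 1 h array of donor B, with a median of -0.47. Of all genes, 47.8, 54.6 and 53.7% were lower in these differences. On slide 3, time and donor letter cannot be told apart, and 1 h donor C was the least low of the 1 h arrays. Only the slide 2 difference is taken between arrays of a single donor letter.

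**Figure D1:**
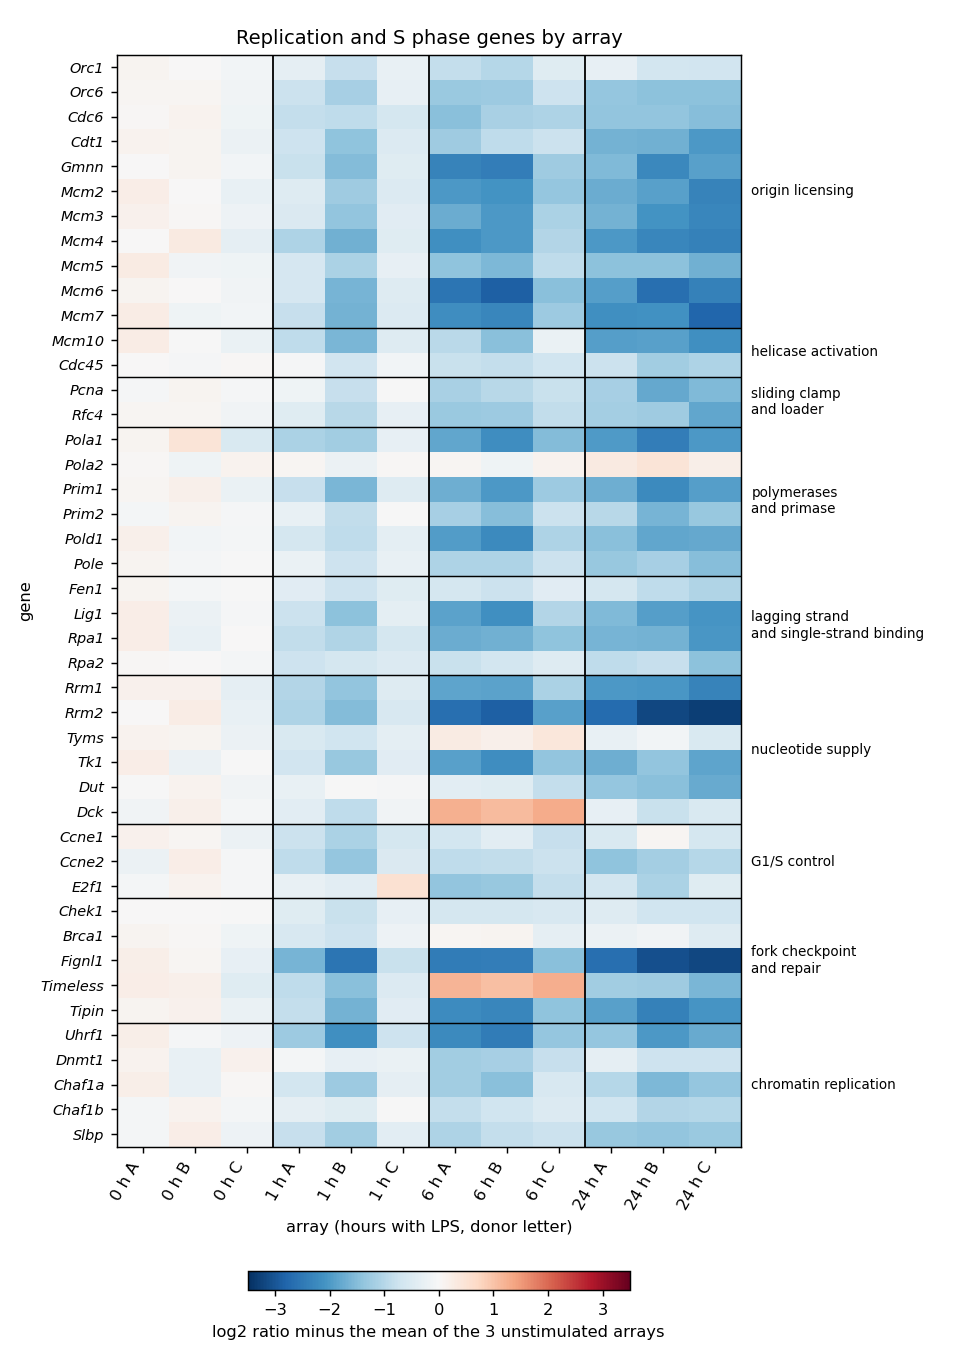
Log2 ratio of each of the 44 genes in each of the 12 arrays, minus the mean of the 3 unstimulated arrays of that gene (blue, lower; red, higher), with arrays ordered by time and donor letter and genes by role. Most rows are blue at 6 h and 24 h, while Timeless and Dck are red at 6 h, Tyms is slightly red at 6 h (0.28), and Pola2 (0.01) and Brca1 (-0.05) are pale there.

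Origin licensing was lower as a whole. All 11 genes of this group were called lower at 6 h and at 24 h, with medians of -1.61 and -1.90, and 3 (Orc6, Cdc6 and Cdt1) at 1 h. The slide block kept 6 at 6 h and 10 at 24 h, where Orc1, the largest subunit of the origin recognition complex, was lost. Cdc6, the ATPase that recruits the helicase loader, had log2 ratios of -0.54, -0.46 and -0.74 in unstimulated donors A, B and C, -1.41, -1.47 and -1.20 at 1 h, -2.04, -1.71 and -1.66 at 6 h, and -1.95, -1.96 and -2.06 at 24 h. No LPS array overlapped the unstimulated ones. The mean fell by 0.78 at 1 h, by 1.22 at 6 h and by 1.41 at 24 h, each with an SE of 0.13 (adjusted p = 0.0032, 1.8e-05 and 8.6e-06).

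Mcm2, a subunit of the hexameric helicase that unwinds DNA at the fork, had log2 ratios of -1.33, -1.55 and -1.83 in unstimulated cells, -2.03, -2.80 and -2.04 at 1 h, -3.58, -3.65 and -2.91 at 6 h, and -3.31, -3.45 and -3.91 at 24 h. At 1 h, donors A and C lay close to the lowest unstimulated array, and the later arrays lay well apart. Mcm2 changed by -0.72 at 1 h (SE 0.25, adjusted p = 0.10), by -1.81 at 6 h (adjusted p = 0.00013) and by -1.99 at 24 h (adjusted p = 6.7e-05). The other 5 subunits of the hexamer, Mcm3 to Mcm7, were called lower at both later times, from -1.29 (Mcm5) to -2.29 (Mcm6) at 6 h and from -1.52 (Mcm5) to -2.35 (Mcm7) at 24 h. At 6 h the slide block kept Mcm4 and Mcm6 and lost Mcm3, Mcm5 and Mcm7 (adjusted p = 0.054, 0.058 and 0.068). None of the 6 was called at 1 h, where they ranged from -0.65 to -1.06. Geminin (Gmnn), which binds Cdt1 and blocks re-licensing within a cycle, changed by -2.0 at 6 h and -1.90 at 24 h. Cdt1 itself changed by -0.86, -0.96 (adjusted p = 0.17 with the slide block) and -1.78 at 1, 6 and 24 h.

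Of the factors that switch the loaded helicase on, Mcm10 and Cdc45 were measured. Cdc45, which travels with the Mcm ring and GINS as the active helicase, had log2 ratios of -0.71, -0.78 and -0.70 in unstimulated cells, -0.78, -1.41 and -0.82 at 1 h, -1.51, -1.55 and -1.44 at 6 h, and -1.49, -1.94 and -1.80 at 24 h. The 6 h and 24 h arrays lay below every unstimulated array. Its probe was well above background on 1 of 3 arrays at 6 h and on none at 24 h. The change of -1.02 at 24 h (SE 0.17, adjusted p = 0.00042) is therefore uncertain in size. In the normalised Cy5 signal, with 24 h values set no lower than the lowest signal marked above background, the fall was 1.90-fold. That fold has no error attached. With the slide block Cdc45 changed by -0.65 at 6 h (adjusted p = 0.078) and by -0.74 at 24 h (adjusted p = 0.059). Mcm10, which is needed for unwinding to start, changed by -0.97 at 1 h (not called), -0.88 at 6 h and -1.99 at 24 h, and the 6 h call was lost with the slide block (adjusted p = 0.29).

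Pcna, the ring that tethers polymerases to DNA, had log2 ratios of -0.27, -0.14 and -0.27 in unstimulated cells, -0.39, -1.05 and -0.25 at 1 h, -1.36, -1.21 and -1.0 at 6 h, and -1.39, -2.02 and -1.77 at 24 h. At 1 h donor B alone was low, and the group overlapped the unstimulated one. The change was -0.33 at 1 h (SE 0.20, adjusted p = 0.35), -0.96 at 6 h (adjusted p = 0.0025) and -1.50 at 24 h (adjusted p = 0.00012), or 2.82-fold lower. Rfc4, a subunit of the loader that opens this ring, changed by -0.56, -1.15 and -1.42, called at 6 and 24 h, and both calls were lost with the slide block (adjusted p = 0.12 and 0.072).

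Among the polymerases and primase, 5 of 6 genes were called lower at 6 h and at 24 h, and Prim1 at 1 h. Under the slide block 4 were lower at 6 h and 5 at 24 h. Pola1, the catalytic subunit of the polymerase that starts each new strand, had log2 ratios of -0.42, -0.06 and -1.04 in unstimulated cells, -1.61, -1.71 and -0.79 at 1 h, -2.31, -2.68 and -2.03 at 6 h, and -2.50, -2.91 and -2.50 at 24 h. The unstimulated arrays themselves spread over about 1 log2 unit, and the groups separated only from 6 h on. Pola1 changed by -0.87 at 1 h (SE 0.28, adjusted p = 0.081), by -1.84 at 6 h (adjusted p = 0.00025) and by -2.13 at 24 h (adjusted p = 8.9e-05).

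Pole, the catalytic subunit of the leading strand polymerase, had log2 ratios of -1.65, -1.81 and -1.74 in unstimulated cells, -1.97, -2.44 and -1.99 at 1 h, -2.81, -2.81 and -2.48 at 6 h, and -3.06, -2.90 and -3.21 at 24 h. Every LPS array lay below the unstimulated ones. It changed by -0.40 at 1 h (adjusted p = 0.13), by -0.97 at 6 h (adjusted p = 0.00030, 0.11 with the slide block) and by -1.33 at 24 h (adjusted p = 3.4e-05). Pold1, the lagging strand polymerase's catalytic subunit, and the primase subunits Prim1 and Prim2 changed by -1.69, -1.96 and -1.32 at 24 h. Pola2, the regulatory subunit that pairs with Pola1, differed from its partner: it was at -0.03, 0.01 and 0.32 and was called in none of the 3 comparisons (adjusted p = 0.89, 0.96 and 0.063), nor by the F test over the 4 groups.

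**Figure D2:**
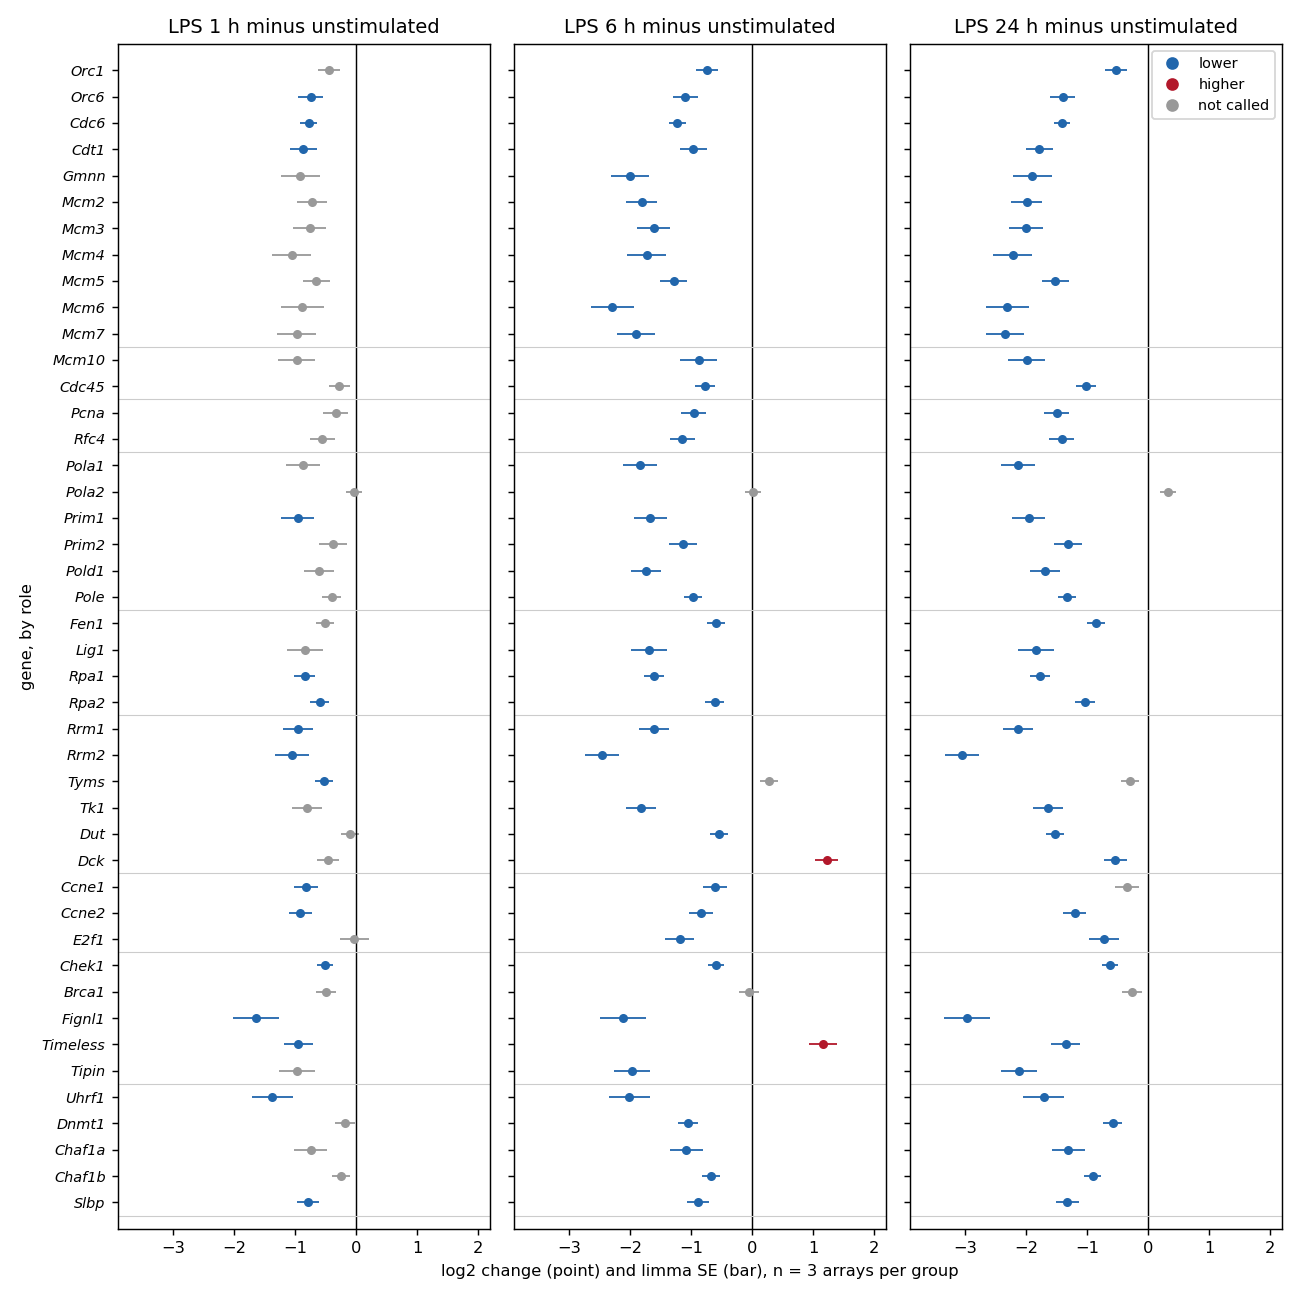
Change of each of the 44 genes at 1, 6 and 24 h against unstimulated cells (x axis, log2; bars are limma's SE, 3 arrays per group), ordered by role and coloured by call without a slide block. Most points lie further left at 24 h than at 1 h, down to -3.05 for Rrm2, while those of Ccne1, Tyms, Brca1 and Pola2 lie further right; Timeless and Dck are called higher at 6 h.

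All 4 genes of the lagging strand and of single-strand binding were called lower at 6 h and 24 h. Of these, the slide block kept Lig1 and Rpa1 at 6 h, and Lig1, Rpa1 and Rpa2 at 24 h. Lig1, the ligase that joins Okazaki fragments, had log2 ratios of -0.67, -1.09 and -0.93 in unstimulated cells, -1.64, -2.33 and -1.25 at 1 h, -2.78, -3.04 and -1.93 at 6 h, and -2.45, -2.83 and -2.95 at 24 h. Donor C was the least low at 1 h and 6 h, and no LPS array reached the unstimulated range. Lig1 changed by -0.84 at 1 h (SE 0.30, adjusted p = 0.10), by -1.69 at 6 h (adjusted p = 0.00066) and by -1.85 at 24 h (adjusted p = 0.00037).

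Rpa1, the large subunit of the complex that coats single-stranded DNA, had log2 ratios of -1.71, -2.21 and -1.93 in unstimulated cells, -2.81, -2.99 and -2.58 at 1 h, -3.69, -3.63 and -3.35 at 6 h, and -3.59, -3.61 and -3.98 at 24 h. The 3 times were each clear of the unstimulated arrays, with little spread inside a group. Rpa1 changed by -0.84 (adjusted p = 0.0094), -1.61 (adjusted p = 1.4e-05) and -1.78 (adjusted p = 8.9e-06), with an SE of 0.17. Its partner Rpa2 changed by -0.60, -0.61 and -1.04. Fen1, the flap endonuclease that trims Okazaki fragments, changed by -0.52 (not called), -0.59 and -0.85, and lost both later calls with the slide block.

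The enzymes of nucleotide supply took different courses. Rrm2, the S phase subunit of ribonucleotide reductase, which makes deoxynucleotides, had the largest fall of the list at 24 h. Its log2 ratios were -0.64, -0.42 and -0.94 in unstimulated cells, -1.74, -2.19 and -1.24 at 1 h, -3.31, -3.53 and -2.57 at 6 h, and -3.35, -3.84 and -3.96 at 24 h. Each group lay below the one before it except for the 6 h and 24 h arrays, which overlapped. Rrm2 fell by 1.05 at 1 h (SE 0.28, adjusted p = 0.038), by 2.47 at 6 h (adjusted p = 2.5e-05) and by 3.05 at 24 h (adjusted p = 6.9e-06), which is 8.28-fold. Rrm1, the large subunit, changed by -0.95, -1.61 and -2.13, and the salvage enzyme thymidine kinase (Tk1) by -0.80 (not called), -1.82 and -1.64 (adjusted p = 0.068 with the slide block at 24 h).

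Dut, which destroys dUTP and so keeps uracil out of DNA, was lower late. Its log2 ratios were -1.14, -1.0 and -1.23 in unstimulated cells, -1.38, -1.13 and -1.17 at 1 h, -1.51, -1.54 and -1.96 at 6 h, and -2.49, -2.58 and -2.89 at 24 h. The 1 h arrays overlapped the unstimulated ones, and the 24 h arrays lay below all others. The change was -0.10 at 1 h (adjusted p = 0.72), -0.54 at 6 h (adjusted p = 0.012, 0.077 with the slide block) and -1.53 at 24 h (SE 0.15, adjusted p = 1.3e-05).

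Dck, deoxycytidine kinase, which salvages deoxynucleosides, went up and came back. Its log2 ratios were 0.22, 0.52 and 0.26 in unstimulated cells, -0.05, -0.56 and 0.22 at 1 h, 1.57, 1.45 and 1.63 at 6 h, and 0.05, -0.46 and -0.20 at 24 h. The 3 arrays at 6 h were higher than the other 9. Dck rose by 1.22 at 6 h against unstimulated cells (SE 0.19, adjusted p = 0.00027, 0.019 with the slide block), or 2.33-fold, and was lower by 0.54 at 24 h (adjusted p = 0.037, 0.25 with the slide block). It was called higher at 6 h on its other 2 probes as well, in the fit without a slide block.

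Tyms, thymidylate synthase, which makes dTMP, had log2 ratios of -0.40, -0.42 and -0.74 in unstimulated cells, -1.06, -1.21 and -0.87 at 1 h, -0.24, -0.34 and -0.13 at 6 h, and -0.78, -0.61 and -1.06 at 24 h. The 1 h arrays lay below the unstimulated ones, the 6 h arrays above all others, and the 24 h arrays overlapped both the unstimulated and the 1 h arrays. Against unstimulated cells it changed by -0.53 at 1 h (SE 0.15, adjusted p = 0.048), by 0.28 at 6 h (adjusted p = 0.15) and by -0.30 at 24 h (adjusted p = 0.13).

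Of the genes that open S phase, Ccne2, one of the E cyclins, had log2 ratios of 0.42, 0.84 and 0.58 in unstimulated cells, -0.28, -0.74 and 0.12 at 1 h, -0.27, -0.26 and -0.13 at 6 h, and -0.80, -0.58 and -0.40 at 24 h. All LPS arrays were lower than the unstimulated ones at each time. Ccne2 changed by -0.91 (SE 0.19, adjusted p = 0.013), -0.83 (adjusted p = 0.0042) and -1.21 (adjusted p = 0.00038), and with the slide block the adjusted p was 0.14, 0.080 and 0.056. Its probe was well above background on 2 of 3 arrays at 1 h and on 1 of 3 at 24 h. Ccne1 changed by -0.83, -0.60 and -0.35, called at 1 h and 6 h, and no call was kept with the slide block. E2f1, a transcription factor that drives many genes of this list, was at -0.03 at 1 h (not called), -1.19 at 6 h (adjusted p = 0.0017) and -0.73 at 24 h (adjusted p = 0.029), the last 2 also called with the slide block. Its 1 h arrays were split, at 0.38, 0.28 and 1.18 in donors A, B and C, against 0.57, 0.76 and 0.61 in unstimulated cells.

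Timeless and Tipin encode a pair of proteins that bind each other and hold the helicase and polymerase together at the fork. Their transcripts went opposite ways at 6 h. Timeless had log2 ratios of 0.60, 0.53 and -0.05 in unstimulated cells, -0.52, -1.11 and -0.13 at 1 h, 1.53, 1.40 and 1.63 at 6 h, and -0.86, -0.89 and -1.24 at 24 h. The 6 h arrays stood above every other array and the 24 h arrays below all except 1 h donor B. Timeless changed by -0.94 at 1 h (SE 0.23, adjusted p = 0.028), rose by 1.16 at 6 h (adjusted p = 0.0016) and was lower by 1.36 at 24 h (adjusted p = 0.00057). With the slide block these 3 calls were lost (adjusted p = 0.23, 0.11 and 0.10), with values of -0.88, 1.11 and -1.18. The rise at 6 h was called on its second probe in the fit without a slide block.

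Tipin had log2 ratios of -0.47, -0.42 and -0.79 in unstimulated cells, -1.41, -2.21 and -0.95 at 1 h, -2.76, -2.85 and -1.97 at 6 h, and -2.47, -2.93 and -2.62 at 24 h. Its 6 h arrays were low where those of Timeless were high. Tipin changed by -0.96 (SE 0.29, adjusted p = 0.066), -1.97 (adjusted p = 0.00022) and -2.12 (adjusted p = 0.00014). Fignl1, an ATPase of recombination repair, had the second largest fall at 24 h (-2.97, SE 0.38, adjusted p = 7.1e-05) and the largest at 1 h (-1.65, adjusted p = 0.020, 0.15 with the slide block). Chek1, the kinase of the replication checkpoint, changed by -0.50, -0.58 and -0.62, and its probe was well above background on none of the 24 h arrays. Read from the Cy5 signal in the way given for Cdc45, it was 1.48-fold lower at 24 h, with no error attached. All 3 Chek1 calls were lost with the slide block (-0.43, -0.61 and -0.51, adjusted p = 0.26, 0.087 and 0.16). Brca1, a recombination repair gene, was at -0.50, -0.05 and -0.26 and was called in none of them (adjusted p = 0.086, 0.85 and 0.23).

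**Figure D3:**
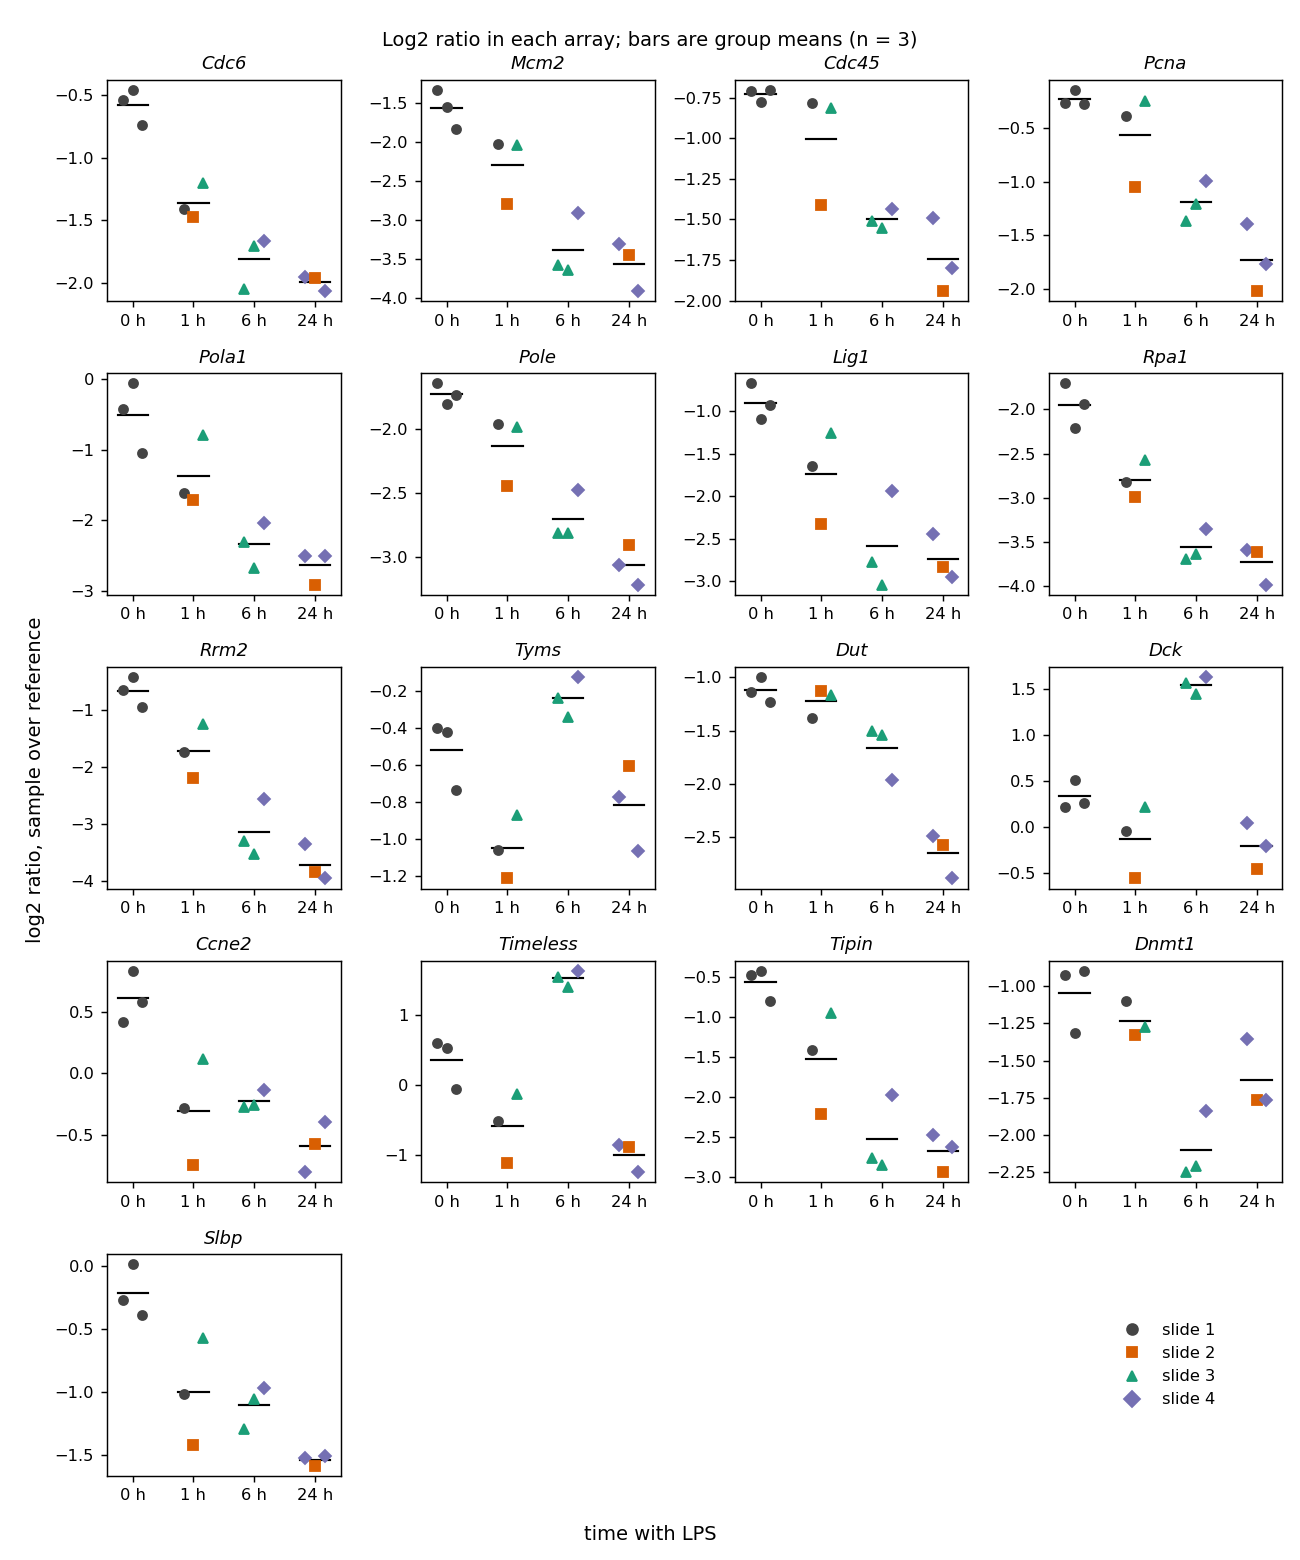
Log2 ratio of sample to reference (y axis, its own range in each panel) in each of the 12 arrays by time with LPS (x axis), for 17 genes; symbols give the slide and bars the group mean of 3 arrays. The 6 h arrays of Timeless (1.40 to 1.63) and Dck (1.45 to 1.63) stand above all others on both slides that hold them, while Tipin falls to between -1.97 and -2.85.

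The 5 genes of chromatin copying were all called lower at 6 h and at 24 h. The slide block kept Uhrf1, Dnmt1, Chaf1b and Slbp at 6 h, and Uhrf1, Chaf1a, Chaf1b and Slbp at 24 h. Dnmt1, which copies DNA methylation onto the new strand, had log2 ratios of -0.92, -1.31 and -0.90 in unstimulated cells, -1.10, -1.33 and -1.27 at 1 h, -2.25, -2.21 and -1.84 at 6 h, and -1.36, -1.76 and -1.76 at 24 h. The lowest arrays were those of 6 h, and the 1 h arrays overlapped the unstimulated ones. It changed by -0.19 at 1 h (adjusted p = 0.52), by -1.05 at 6 h (SE 0.16, adjusted p = 0.00028) and by -0.58 at 24 h (adjusted p = 0.012, 0.20 with the slide block).

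Uhrf1, which brings Dnmt1 to replicated DNA, changed by -1.37, -2.01 and -1.71, called at each time. Slbp, which binds the stem-loop of replication-dependent histone mRNA, had log2 ratios of -0.27, 0.01 and -0.39 in unstimulated cells, -1.02, -1.42 and -0.57 at 1 h, -1.29, -1.05 and -0.97 at 6 h, and -1.53, -1.59 and -1.51 at 24 h. The 24 h arrays were the lowest and lay close together. Slbp changed by -0.79 (SE 0.19, adjusted p = 0.024), -0.89 (adjusted p = 0.0023) and -1.33 (adjusted p = 0.00015). Chaf1a and Chaf1b, subunits of the histone chaperone CAF-1, changed by -1.31 and -0.91 at 24 h.

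Genes with and without an E2F octamer in the promoter can be set side by side, as a description and without a test. At 6 h, 12 of the 12 measured genes with an octamer were called lower, with a median of -1.65 and a range of -2.29 to -0.74. Of 26 measured genes with an entry and no octamer 21 were lower, with a median of -0.88 and a range of -2.47 to 1.22. At 24 h the counts were 12 of 12 (median -1.75) and 22 of 26 (median -1.34), and at 1 h 3 of 12 (median -0.81) and 12 of 26 (median -0.66). Rrm2, with the largest fall at 24 h, is among the genes without an octamer in this window.

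Comparing successive times asks how much of the fall came after 1 h and after 6 h. From 1 h to 6 h, 23 of the 44 genes fell and 3 rose, against 16.2% and 12% of all genes, and the median change was -0.58 where that of all genes was -0.09. The 3 that rose were Timeless (2.11, SE 0.23, adjusted p = 3.0e-05), Dck (1.68, adjusted p = 3.4e-05) and Tyms (0.81, adjusted p = 0.0014), and each was called with the slide block too. The falls were led by Rrm2 and Mcm6 (-1.41 each), E2f1 (-1.16), Pold1 (-1.13), Mcm2 and Gmnn (-1.09 each). The slide block left 19 lower (13.7% of all genes) and 3 higher (10.9%). Rfc4 was lost and Prim1 gained with the donor block.

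That count moved with single arrays and with scaling. Of the 23 falls, the fit with local backgrounds as deposited had 3 and that with median centring in place of loess had 0. Both fits called 3 rises. The number of calls was 14 without 1 h donor A, 12 without 1 h donor C, 11 without 6 h donor A and 12 without 6 h donor B, against 26 over all arrays. The direction of Cdc6 (-0.44, adjusted p = 0.024, 0.057 with the slide block) turned to 0.043 when the local backgrounds were used as deposited. Slide 3 holds 1 h donor C with 6 h donors A and B, so time and donor letter cannot be told apart there. Within it, Timeless was higher by 1.60 at 6 h, Dck by 1.29 and Tyms by 0.58, and Rrm2 was lower by 2.18 on the log2 scale.

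From 6 h to 24 h few genes of the list were called, and how far the list as a whole went on falling is not settled. The median over the 44 genes ran from -0.58 to -0.13 over the settings run. Of the 44 genes, 6 fell and 0 rose, against 8.76% and 9.64% of all genes, with a median change of -0.25. Timeless fell by 2.52 (SE 0.23, adjusted p = 5.0e-05) or 5.73-fold, Dck by 1.76 (adjusted p = 9.9e-05), Mcm10 by 1.12 (adjusted p = 0.023), Dut by 0.98 (adjusted p = 0.0010), Cdt1 by 0.82 (adjusted p = 0.022) and Tyms by 0.58 (adjusted p = 0.018). Of these, 3 are the genes that had risen between 1 h and 6 h. The slide block kept Timeless, Dck and Dut (4% of all genes were lower) and lost the other 3, and without 24 h donor C 3 calls were left. With the donor block Dnmt1 was called higher at 24 h than at 6 h (0.47, adjusted p = 0.040, against 0.064 without it).

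Within slide 4, which holds 6 h donor C with 24 h donors A and C, 40 of the 44 genes were lower at 24 h, with a median of -0.58, against 47.2% of all genes. Donor C was the least low of the 6 h arrays on the list, and the 6 h arrays of slide 3 (medians -2.10 and -2.22) lay near the 24 h arrays (-1.92 to -2.22). The 6 h levels of the list thus differed between donors A and B on slide 3 and donor C on slide 4. Slide and donor letter cannot be told apart in this difference.

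**Figure D4:**
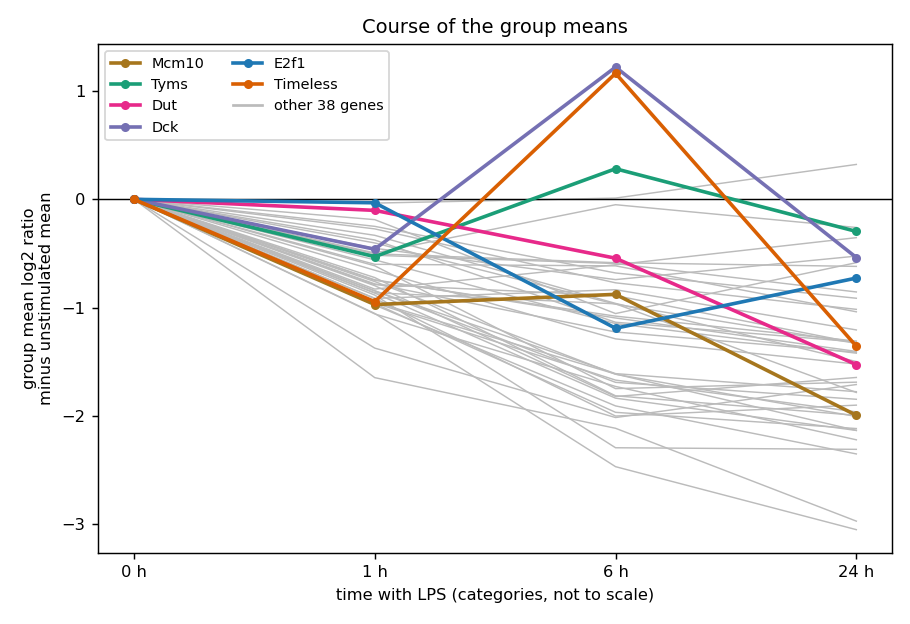
Group mean log2 ratio of each of the 44 genes minus its unstimulated mean (y axis) at the 4 times (x axis, categories not to scale); 6 genes are coloured and the other 38 grey. Timeless and Dck reach 1.16 and 1.22 at 6 h and are below 0 at 1 h and 24 h. The mean of E2f1, whose 1 h arrays were split, leaves 0 only after 1 h, and Dut and Mcm10 have much of their fall after 6 h.

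Other replication genes, listed apart from these 48, were also mostly called lower at the later times. Of 55 tested, 15 were lower and 0 higher at 1 h, 41 lower and 2 higher at 6 h, and 43 lower and 2 higher at 24 h, with medians of -0.47, -0.70 and -0.80 (2, 19 and 24 lower with the slide block). Exo1, an exonuclease of mismatch repair, and Dna2, a nuclease and helicase of Okazaki fragments, had the largest called falls at 24 h (-2.81 and -2.56). The rises at 24 h were those of Pold4 (0.68, adjusted p = 0.067 with the slide block), a small subunit of the lagging strand polymerase, and Mcmbp (0.39), a binding partner of the Mcm proteins.

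Among 22 other genes of nucleotide metabolism, 2, 15 and 14 were lower and 0, 2 and 1 higher at 1, 6 and 24 h, with medians of -0.22, -0.62 and -0.64 (0, 8 and 7 lower with the slide block). Cad, which starts pyrimidine synthesis, changed by -2.0 at 24 h, and Dtymk, which phosphorylates dTMP, by -1.71. Samhd1, which breaks down deoxynucleotides, went the other way, with a rise of 1.91 at 6 h (SE 0.18, adjusted p = 7.0e-06) and 1.07 at 24 h, both called with the slide block.

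The G1/S and E2F regulators were mixed. Of 33 tested, 8, 17 and 16 were lower and 4, 6 and 6 higher at 1, 6 and 24 h (with the slide block 1, 8 and 12 lower and 1, 4 and 4 higher). Ccna2, the cyclin of S phase and G2, and Cks1b, a cofactor of its kinase, had the largest falls at 24 h (-2.81 and -2.79). Ccnd2, a D cyclin, was higher by 2.32 at 6 h and 1.78 at 24 h, and Cdkn2a, which encodes a cyclin kinase inhibitor, was higher by 0.90 at 1 h and 1.30 at 24 h.

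Mitosis genes, which act after S phase, were lower in 6, 47 and 50 of 52 at 1, 6 and 24 h, with medians of -0.73, -1.42 and -1.55 (0, 23 and 32 lower with the slide block). Of these, 5 passed the filter on dim probes through the unstimulated group only, and without them 5, 42 and 45 of 47 were lower. Birc5 (survivin), of the chromosomal passenger complex, and Cdca3, which promotes entry into mitosis, changed by -3.75 and -3.16 at 24 h. The single rise was that of Pttg1, securin, at 2.23 at 6 h and 0.95 at 24 h. In the other replication, nucleotide and G1/S lists 2, 1 and 2 genes passed in that way, and without them 41 of 53, 13 of 21 and 15 of 31 were lower at 24 h. The differences in median between these lists were not tested.

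**Figure D5:**
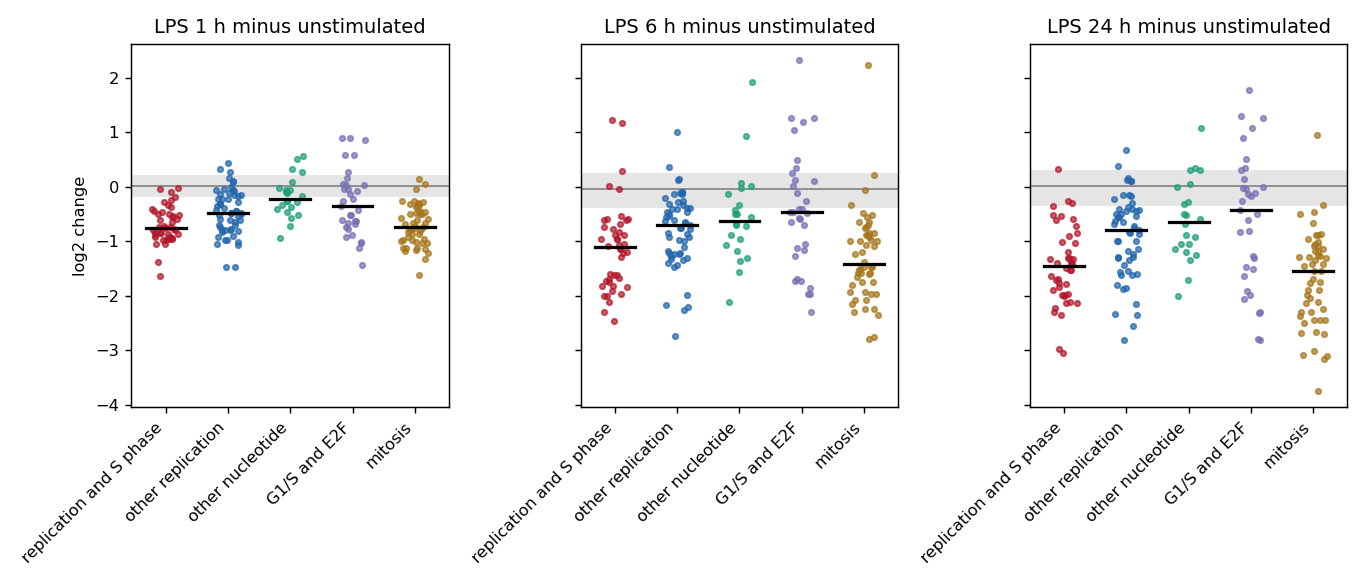
Change of single genes (points, log2) at 1, 6 and 24 h against unstimulated cells in the 44 genes described here and in the other 4 lists; black bars are list medians, the grey line and band the median and middle 50% of all 11095 genes. The medians of the 44 genes (-0.75, -1.11 and -1.46) and of the 52 mitosis genes (-0.73, -1.42 and -1.55) lie below the grey band at every time.

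Markers of other cells that a marrow culture can hold were read beside these falls. Of 7 tested progenitor markers, 1 was lower at each time, and the mean log2 ratio over them was -0.04 to 0.17 in unstimulated arrays, -0.23 to -0.12 at 1 h, -0.11 to 0.00 at 6 h and -0.09 to -0.04 at 24 h. Of 12 tested neutrophil markers, 4, 8 and 9 were lower at 1, 6 and 24 h and 0, 2 and 2 higher. Their mean log2 ratio went from 1.94 to 2.30 in unstimulated arrays to 0.84 to 1.33 at 24 h. Of 9 tested macrophage and monocyte markers, 0, 1 and 6 were lower and 2 were higher at each time. Their mean log2 ratio was 1.85 to 2.06 in unstimulated arrays, 2.49 to 2.88 at 1 h, 2.19 to 2.23 at 6 h and 1.33 to 1.63 at 24 h. Mrc1, the mannose receptor, went from a mean of 3.48 to 0.55 at 24 h and Ccr2, a chemokine receptor of monocytes, from 3.87 to 1.92. Cd14 and Adgre1, of the same list, went the other way, from -1.86 to 2.68 and from 2.24 to 3.18. The mean over 6 mast cell and basophil markers was 0.26 to 0.35 in unstimulated arrays and 0.83 to 1.0 at 24 h, with 0, 3 and 2 lower and 1 higher at each time. Among them only Hdc had a higher group mean at 24 h, at 5.32 against 0.52 in unstimulated cells. Those of Cpa3, Fcer1a, Gata2, Kit and Mcpt4 were lower or nearly unchanged. Of the B cell, T and NK cell, erythroid, plasmacytoid and stromal markers tested (4, 2, 5, 6 and 7), none was lower at 1 h, and at 24 h 0, 0, 0, 2 and 1 were lower and 1, 1, 1, 1 and 2 higher. The part of these markers in the falls of the replication genes was not tested.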

How the data were processed

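RNA from 12 cultures (4 groups of 3) was measured on 2-colour arrays; per the labels' protocols, 750 ng of labelled cRNA was hybridised. The deposited scanner files hold median Cy5 and Cy3 signal and local background intensities, written by Feature Extraction 10.7.3.1 per the file headers. The authors' deposited table of log2 ratios (limma is the tool that the submitters' processing notes name) correlated with the values used here at 0.999 or more on every array and served as an alternative. The version of limma the submitters used is not given in the sources used here.

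Intensities were background-corrected with normexp (offset 50) in limma 3.58.1 under R 4.3.3. Feature outlier spots were left out, and local backgrounds marked as outliers were replaced by the array's median background. Loess (span 0.3) followed, with 1639 control spots at weight 0. Spots of a probe were averaged. Of 41174 probes 22951 matched a RefSeq accession, 21750 of the 41174 passed the filter, and 15104 did both. The brightest kept probe stood for a gene, and 14 missing values were left missing. One mean per group was fitted over all 12 arrays (8 residual degrees of freedom, 5 with slide and 6 with donor as a block) with eBayes; all p-values are two-sided. The number of arrays limits the precision.

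Donor letters recur across groups, but the labels do not say that a letter is 1 animal throughout. Deviations from group means correlated with a median r of 0.109 (-0.210 to 0.584) over 18 pairs of the same letter and of -0.0134 over 36 pairs of different letters. The fitting steps were tested on simulated data. The genes described, the companion lists and the marker lists were chosen with earlier results of these data known. Values of every array are given for the 2 genes of each role (1 in roles of 3 or fewer) with the smallest F test p, and for genes called against the direction of their role. In the companion lists the 2 largest called falls and rises are named.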

Additional observations from a re-analysis of the deposited data

How the results depend on the processing

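The count of genes called at 1 h was the most open to processing. Against 16, it was 8 with the scanner's processed signals, 9 with only the 2 groups compared, 10 with slide as a random block, 3 with a 2-fold minimum, and 0 with median centring in place of loess, with all local backgrounds as deposited, and with slide as a fixed block. At an unadjusted p under 0.05 the last 3 limma fits had 31, 26 and 21 genes lower. At 6 h, against 41, it was 27 with a 2-fold minimum, 27 with backgrounds as deposited, 24 with slide as a fixed block and 22 with median centring. At 24 h no setting moved the count of 40 by over 1.5 times. For 6 h against 1 h, against 26, it was 17 with Cy5 alone, 16 with processed signals, 13 with only the 2 groups, 10 with a 2-fold minimum, 6 with backgrounds as deposited and 3 with median centring. These totals pool rises and falls: backgrounds as deposited gave 3 higher and 3 lower, and median centring 3 higher and 0 lower, against 3 and 23. The median over the 44 genes for 6 h against 1 h ran from -1.01 to -0.22 over the settings. For 24 h against 6 h, against 6, it was 3 with slide as a fixed block and 3 with a 2-fold minimum. Leaving out 1 array gave 2 to 26 calls at 1 h, 38 to 41 at 6 h, 36 to 41 at 24 h, 11 to 31 for 6 h against 1 h and 3 to 7 for 24 h against 6 h. With the replicate block (donor letter) the counts were 22, 41, 40, 26 and 7, and no call changed beyond those named in the text. The single reversed value was Cdc6 from 1 h to 6 h, at 0.043 with backgrounds as deposited; the cause was not tested. The median over the 44 genes stayed negative in every setting run, from -0.98 to -0.52 at 1 h, -1.61 to -0.93 at 6 h and -1.82 to -1.03 at 24 h. Median centring shifted the median of all genes by -0.14, 0.09 and -0.13 at these times, and the median of the 44 genes lay at -0.86, -1.15 and -1.70 relative to the shifted one.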
